A study of Rattus norvegicus with 12 samples.

Results

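Smooth muscle and cardiac contractile genes were followed across 12 rat microarrays, chosen by gene symbol from a list of 10: Acta2, Tagln, Cnn1, Myh11, Des, Actc1, Lmod1, Myl9, Tpm2 and Tnnt2. Of these, 7 had a named probe, 1 probe each, among 13337 named genes and 22523 probes, and Acta2, Myh11 and Tpm2 were not analysed here. The study exposed cultured cells of rat aorta, labelled endothelial cells (EC), to exosomes, the small vesicles that cells shed, from a rat pancreatic carcinoma line. All cells and the carcinoma were of the BDX rat strain. The untreated EC (2 arrays) were kept in RPMI with 2% serum, the EC with AS exosomes (2 arrays) received 10 µg/ml of vesicles from the AS carcinoma line in that medium for 24 h, and the EC with AS-Tspan8 exosomes (2 arrays) received the same amount from a derivative of AS that stably expresses the tetraspanin Tspan8 (also called D6.1A). All EC had been cultured with VEGF and starved overnight before exposure. The 2 tumour lines were measured as cells (1 array each) and as exosomes collected after 36 h without serum (2 arrays each). Whether replicates are separate cultures is not said in the labels, and the p-values speak only of how far these samples spread, which may be technical.

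Contraction works by myosin filaments pulling on actin filaments. In smooth muscle the regulatory light chain of myosin (Myl9) is phosphorylated to start it, calponin (Cnn1) and transgelin (Tagln) bind the actin filament, leiomodin (Lmod1) nucleates actin, and desmin (Des) is the intermediate filament that ties the apparatus together. In heart muscle the thin filament is made of cardiac actin (Actc1) and is switched by calcium through the troponin complex, whose tropomyosin-binding subunit is troponin T (Tnnt2). Transcription of many of these genes depends on serum response factor (Srf), which binds the CArG box, together with its partners myocardin (Myocd) and Mrtfa. Vascular smooth muscle cells in culture, myofibroblasts and fibroblasts can carry Tagln and Myl9, and tumour cells can express isolated muscle genes.

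The promoters of 4 measured members are shown to set the 1 of them that was detected, Tnnt2, beside 3 that were not. The sequences are RefSeq, build GRCr8, and run 5′ to 3′ from 250 bases before the gene's start to 20 bases from the start on. Capitals mark CArG boxes with up to 1 mismatch and the MCAT element CATTCC, the binding site of TEAD factors, on either strand. Tnnt2 lies on the plus strand of chromosome 13 (chr13:49818873-49819142), Actc1 on the minus strand of chromosome 3 (chr3:121271808-121272077), Cnn1 on the plus strand of chromosome 8 (chr8:28908187-28908456) and Des on the plus strand of chromosome 9 (chr9:84299376-84299645).
Tnnt2: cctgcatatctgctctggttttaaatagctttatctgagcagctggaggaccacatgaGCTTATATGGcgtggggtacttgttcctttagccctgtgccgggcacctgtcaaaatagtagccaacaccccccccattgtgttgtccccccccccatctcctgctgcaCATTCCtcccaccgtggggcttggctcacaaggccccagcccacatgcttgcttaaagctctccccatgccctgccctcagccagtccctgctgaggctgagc
Actc1: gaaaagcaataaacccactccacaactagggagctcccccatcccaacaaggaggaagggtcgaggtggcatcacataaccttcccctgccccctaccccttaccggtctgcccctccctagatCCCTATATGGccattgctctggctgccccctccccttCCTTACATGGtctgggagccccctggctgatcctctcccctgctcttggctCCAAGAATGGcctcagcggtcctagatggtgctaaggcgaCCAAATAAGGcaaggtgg
Cnn1: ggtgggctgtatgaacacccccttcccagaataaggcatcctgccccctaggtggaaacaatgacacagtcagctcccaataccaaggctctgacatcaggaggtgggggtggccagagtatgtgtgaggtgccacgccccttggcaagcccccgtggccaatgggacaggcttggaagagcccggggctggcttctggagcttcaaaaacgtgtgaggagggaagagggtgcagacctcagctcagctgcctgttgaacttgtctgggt
Des: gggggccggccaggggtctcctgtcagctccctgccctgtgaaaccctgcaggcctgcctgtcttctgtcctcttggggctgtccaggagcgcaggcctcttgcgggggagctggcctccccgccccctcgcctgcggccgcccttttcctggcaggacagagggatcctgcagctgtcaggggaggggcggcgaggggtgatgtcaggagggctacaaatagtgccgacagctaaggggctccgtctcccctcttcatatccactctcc

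The table of promoter windows held 6 of the 10 members, in 7 windows of 300 bases (250 before and 50 after the start). It has 2 windows for Tnnt2, of which the one that starts farther upstream is shown. The windows of Acta2, Actc1 and Tnnt2 held a CArG box with up to 1 mismatch, 3 of 7 windows, against 21.3% of all 33469 windows. The only exact CArG box was that of Actc1, from 2 to 11 bases past the start base, a match found in 1.64% of all windows. MCAT was in 2 of 7 windows, those of Acta2 and Tnnt2, against 14.2% of all windows, and in Tnnt2 it ran from -83 to -78 of the start base. The E-box CANNTG was in 5 of 7 windows against 72.1%, and the Smad box CAGAC in 6 of 7 against 50.1%. A match describes the letters only: Actc1, with the exact box, was detected on no array.

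A probe was called detected on an array where its detection p, the share of negative control probes at least as bright, was under 0.01. By that rule 3 members, Tagln, Myl9 and Tnnt2, were detected on all 6 EC arrays, and the other 4, Cnn1, Des, Actc1 and Lmod1, on none of the 12 arrays. For scale, 45.4% of all named genes were detected on all 6 EC arrays. The cells thus carried RNA for transgelin, the myosin light chain and troponin T without a detectable signal for calponin, desmin, cardiac actin or leiomodin. Each rests on 1 probe, and an undetected probe does not show that the RNA was absent. The probe of the nonmuscle actin gene Actg1 was also detected on none of the 12 arrays. It read 62.11 to 84.55 on the EC arrays, where that of Actb read 21544 to 29976.

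**Figure D1:**
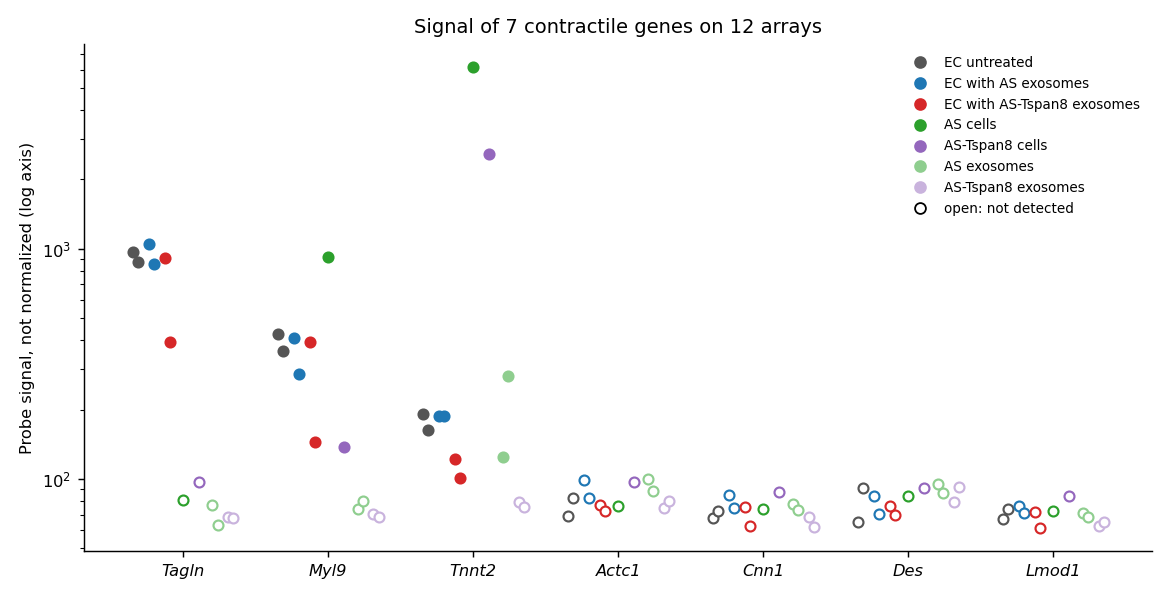
Signal of each of the 7 probes, not normalized, on a log axis, with 1 point per array coloured by group, filled where detected and open where not. Tagln is filled on the 6 EC arrays alone, Tnnt2 is highest in the 2 tumour cell arrays, and Actc1, Cnn1, Des and Lmod1 are open throughout, between 61.3 and 99.8.

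The 4 undetected members read between 61.3 and 99.8 in all 48 values, with a lowest detection p of 0.0194. Of those 48 values, 7 had a detection p under 0.05. On the EC arrays Actc1 ranged from 69.2 to 98.8, Cnn1 from 62.4 to 85.3, Des from 65.2 to 91.2 and Lmod1 from 61.3 to 76.1. In the authors' processed values the exosome arrays lifted some of these probes, Des up to 598 and Actc1 up to 297, although their signals there did not exceed 95.2 and 99.8 and neither was detected. No fold is given for these 4 genes.

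Tagln, an actin-binding marker of smooth muscle that is also found in activated fibroblasts, read 971 and 874 in untreated EC, 1048 and 861 in EC with AS exosomes, and 907 and 391 in EC with AS-Tspan8 exosomes. Replicate 2 of EC with AS-Tspan8 exosomes stood apart as the lowest of the 6, and the other 5 lay between 861 and 1048. Myl9 read 427 and 358 in untreated EC, 409 and 287 with AS exosomes, and 392 and 145 with AS-Tspan8 exosomes. Its lowest array was the same one. Tnnt2 read 191 and 163 in untreated EC, 187 on both arrays with AS exosomes, and 122 and 101 with AS-Tspan8 exosomes. Both arrays with AS-Tspan8 exosomes were below the other 4 for Tnnt2, while the untreated arrays and those with AS exosomes overlapped. Of all 9025 features, 43.0% had their lowest signal on replicate 2 of EC with AS-Tspan8 exosomes and 14.9% on replicate 1. The share with both these arrays below the other 4 was not counted.

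**Figure D2:**
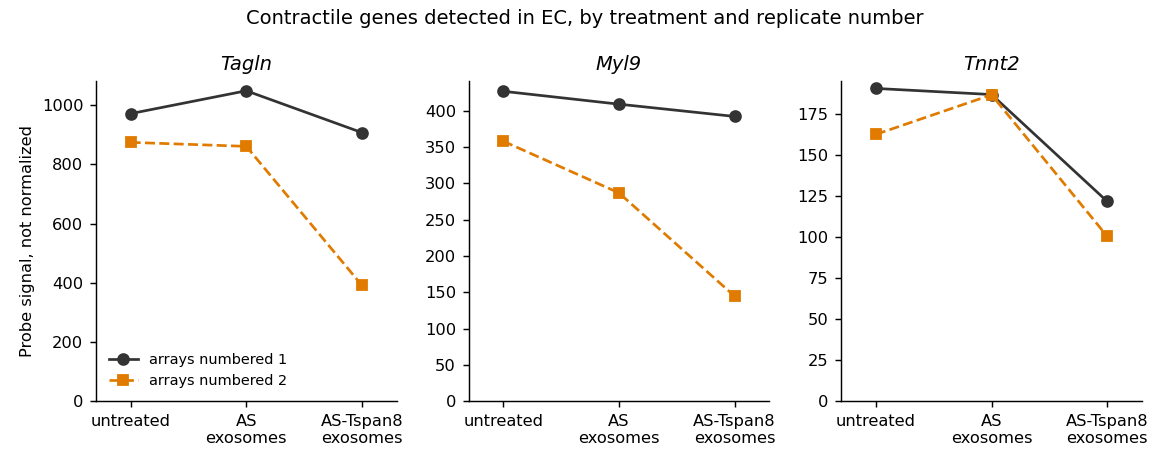
Signal of Tagln, Myl9 and Tnnt2, not normalized, in EC by treatment, with lines joining arrays that carry the same replicate number. Tagln and Myl9 are low on 1 array of EC with AS-Tspan8 exosomes (391 and 145), while both Tnnt2 points of that group (122 and 101) are below the other 4.

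The question of the first comparisons was whether exosomes changed expression in the EC, and whether it differed between exosomes of the 2 lines. AS exosomes moved none of the 3 genes beyond the spread between arrays: on the log2 scale of background-corrected, quantile-normalized signal the differences from untreated EC were 0.07 ± 0.38 (SE, n = 2 each) for Tagln, -0.22 ± 0.55 for Myl9 and 0.11 ± 0.28 for Tnnt2, each with adjusted p = 0.9997 (limma, Benjamini-Hochberg over 9025 features). No feature was called at adjusted p under 0.05 (0% of 9025), and 62 (0.687%) had an unadjusted p under that value. For Tnnt2 the 2 arrays of a group bracketed the other group, with a log2 difference of -0.38 between arrays numbered 1 and 0.60 between arrays numbered 2.

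With AS-Tspan8 exosomes Tnnt2 was lower than in untreated EC by a log2 difference of -0.89 ± 0.28 (0.54-fold, n = 2 each), but limma's adjusted p was 1. The signal ratio was 0.64 between arrays numbered 1 and 0.62 between arrays numbered 2. Its unadjusted p of 0.018 was number 18 in order of p among 9025 features, of which 116 (1.29%) had an unadjusted p under 0.05 and 0% were called. Groups that did not overlap, with the treated arrays lower, were found in 12.1% of features. Tagln differed by -0.54 ± 0.38 and Myl9 by -0.76 ± 0.55, again with limma's adjusted p = 1.

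Against EC with AS exosomes, which compares vesicles of the 2 lines, the log2 difference of Tnnt2 was -1.003 ± 0.283 (0.50-fold), with limma's adjusted p = 1. The lines differ in more than Tspan8. Between the cells, 540 of 8705 features (6.2%) detected in both differed by log2 1 or more, with 1 array each. Tspan8 and other differences between the lines cannot be told apart here. By unadjusted p, 0.011, it stood at number 3 of 9025 features, of which 51 (0.565%) were under 0.05 and 0% called. It was lower in both pairs of arrays with the same number, by a log2 difference of -0.70 and -1.31, and 7.97% of features had groups that did not overlap in that direction. These 2 comparisons share the arrays of EC with AS-Tspan8 exosomes and are not independent. Tagln differed by -0.61 ± 0.38 and Myl9 by -0.54 ± 0.55 (limma's adjusted p = 1 for both).

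The lower Tagln and Myl9 averages with AS-Tspan8 exosomes rested on replicate 2 of that group. Without that array the difference from untreated EC was 0.07 for Tagln and 0.12 for Myl9, and from EC with AS exosomes 0.00 and 0.34, on the log2 scale. Between arrays numbered 1 Tagln differed from untreated EC by -0.09 and between arrays numbered 2 by -0.99, and Myl9 by -0.15 and -1.37. The Tnnt2 difference was -0.82 without that array against EC with AS exosomes. The array had the lowest summed signal of the 6, 10383650, and of all 9025 features 43.0% had their lowest signal on it, or 24.0% after normalization. Normalized, Tagln, Myl9 and Tnnt2 were all lowest there, as were 8 of 17 tested smooth muscle and actin partners, while 3 partners were highest. Caldesmon (Cald1), which restrains actomyosin, read 1864 there against 3221 to 5557 on the other 5 arrays, and Tpm1, an actin-stabilizing tropomyosin, read 239 against 138 to 196. Of 14 fibroblast markers 11 were lowest there after normalization and 1 highest. Their summed signal was 68392 against 79151 to 85007, with Lum, at 15348, highest on that array. The summed signal of 15 endothelial markers was 1932 against 2249 to 3650, and Ramp2 alone read 891 there against 1101 to 2365. Their part in the result was not tested, and in bulk samples fewer cells of a type and less RNA per cell cannot be told apart.

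**Figure D3:**
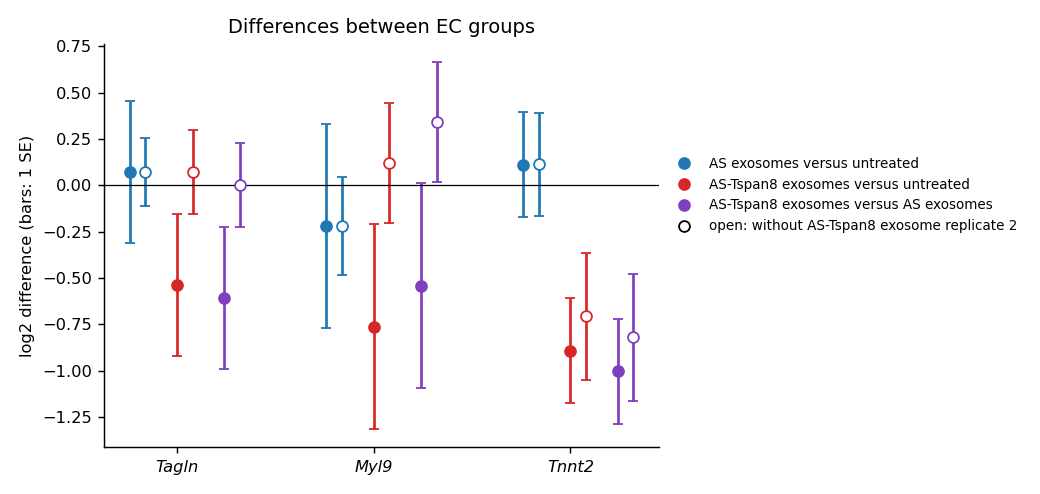
Difference in normalized log2 signal between EC groups for Tagln, Myl9 and Tnnt2, filled with all 6 EC arrays and open without replicate 2 of EC with AS-Tspan8 exosomes, with bars of 1 SE. The open points of Tagln and Myl9 return to near or above 0, while those of Tnnt2 stay below it where AS-Tspan8 exosomes are involved.

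Tagln and Myl9 read lower on the array numbered 2 than on that numbered 1 in each of the 3 EC groups. With treatment in the model, Myl9 differed by -0.92 ± 0.26 (n = 3 each) and Tagln by -0.56 ± 0.22, with limma's adjusted p = 0.123 and 0.214. Neither passed the test, while 109 of 9025 features (1.21%) did. For both genes all 3 arrays numbered 2 were below all 3 numbered 1, as were 15.4% of features. Tnnt2 overlapped between the numbers, at -0.29 ± 0.20 (limma's adjusted p = 0.438). Without replicate 2 of EC with AS-Tspan8 exosomes the directions for Myl9 and Tagln were kept, and the lowest sizes with any EC array left out were -0.50 and -0.23. In the wider lists 0 of 17 partners passed, 8 being higher and 9 lower, with Itga7 at 0.87 ± 0.15 and Cald1 at -0.90 ± 0.19 having the lowest p. Of 13 regulators 0 passed, with Rhoa at 0.54 ± 0.15 and Tgfb1 at 0.29 ± 0.14, of 4 striated muscle genes 0, with Tnnt3 at 0.27 ± 0.14 and Tnnc1 at -0.09 ± 0.17, and of 9 nonmuscle genes 0, with Myl12b at -0.64 ± 0.15 and Tpm4 at -0.25 ± 0.13.

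The 3 genes varied together to unequal degrees over the 6 EC arrays. Pearson's r of the normalized signals was 0.963 between Myl9 and Tagln, 0.757 between Tnnt2 and Tagln, and 0.652 between Tnnt2 and Myl9, a description of 6 arrays that share treatments and replicate numbers. Among 1682 named genes detected on all 6 arrays with an SD of at least 0.25, those closest to the mean profile of the 3 were Pxmp4 (r = 0.99), Tmem53 (0.987), Pdlim3 (0.972), Tdrp (0.961) and Nudt14 (0.96), and 72 had r over 0.9. Pdlim3 encodes a PDZ and LIM domain protein that binds alpha-actinin in muscle, and its signal ran from 86.3 to 214. The genes closest to Tnnt2 alone were Fam131b (0.92), Brms1l (0.914) and Lrrc8a (0.899), and only 2 genes had r over 0.9.

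The wider contractile program was present in the EC in part. Of 21 named smooth muscle and actin partners 14 were detected on all 6 EC arrays, among them Cald1, Smtn, the phosphatase inhibitor Ppp1r14a and the filament cross-linker Flna. Of 18 named regulators 11 were, including Srf, Mrtfa and Klf4, a repressor of smooth muscle genes, while Myocd was detected on no array. Of 28 named genes of striated muscle only Tnnt3, the fast skeletal troponin T, was detected on all 6, and 23 were on none. The EC label was not borne out by endothelial markers: 3 of 15 were detected on all 6 EC arrays (Egfl7, Clec14a and Ramp2) and 11 on none, Cdh5 and Vwf among them. Of 14 fibroblast markers 12 were detected on all 6 arrays. Of 6 pericyte markers none was detected on all 6 and 4 on none, while Kcnj8 was detected on 4 EC arrays and Cspg4 on 3. Beside these counts, 45.4% of all named genes were detected on all 6 EC arrays. The endothelial markers Pecam1, Kdr and Eng and the pericyte marker Pdgfrb had no named probe.

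No gene of these lists passed the test in a comparison of exosome treatments. With AS-Tspan8 exosomes against untreated EC 0 of 17 tested partners passed, with a median log2 difference of -0.08 against 0.00 over all 9025 features, and the 2 of lowest unadjusted p were Flna (0.45 ± 0.27) and Csrp1 (-0.52 ± 0.33). The sign of that median differed between the replicate numbers, at 0.15 between arrays numbered 1 and -0.34 between arrays numbered 2. Of 13 regulators 0 passed (median -0.10, being 0.06 and -0.26 within the numbers), with Klf5 at -0.33 ± 0.28 and Klf4 at 0.21 ± 0.19. Of 4 striated muscle genes 0 passed (median 0.05), with Tnnc2 at least 1.14-fold lower and Tnnc1 at least 1.07-fold higher, each being detected in 1 of the 2 groups. Of 9 nonmuscle actomyosin genes 0 passed (median -0.08), with Pfn1 at -0.34 ± 0.21 and Myh9 at -0.52 ± 0.34. Of 14 fibroblast markers 0 passed and 11 were lower, with a median of -0.34, and Thy1 (-1.08 ± 0.35) and Loxl1 (-0.42 ± 0.18) had the lowest p. That median rested on the arrays numbered 2, where it was -0.88 with 11 lower, against -0.01 with 7 lower between arrays numbered 1.

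Against EC with AS exosomes 0 of the same 17, 13, 4 and 9 genes passed, with medians of 0.014, 0.017, 0.015 and -0.021. Between arrays numbered 1 the partner median was 0.05 and between those numbered 2 it was -0.21. The partners of lowest p were Itga8, an integrin of smooth muscle (-0.66 ± 0.42), and Pdlim7 (-0.21 ± 0.17), and the regulators Klf5 (0.36 ± 0.28) and Klf4 (0.24 ± 0.19). Casq2 (-0.16 ± 0.19) and Tnnt3 (0.16 ± 0.22) were those of striated muscle, and Vim (-0.24 ± 0.19) and Tpm4 (-0.13 ± 0.20) those of nonmuscle actomyosin. With AS exosomes against untreated EC 0 passed as well, with medians of -0.03, -0.04, 0.05 and -0.13. The genes of lowest p were Fhl2 (-0.32 ± 0.22) and Synpo2 (-0.28 ± 0.22) among partners, Klf5 (-0.69 ± 0.28) and Foxo4 (at least 1.07-fold lower) among regulators, Tnnc2 (at least 1.14-fold lower) and Tnnc1 (at least 1.03-fold higher) in striated muscle, and Myh9 (-0.62 ± 0.34) and Pfn1 (-0.32 ± 0.21) in nonmuscle actomyosin.

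Tagln and Tnnt2 differed between EC and tumour cells in opposite directions. The Tspan8 probe itself read 75.1 in the AS line and 2036 in its derivative, in the direction of the labels. Tagln read 80.6 in the AS and 97.2 in the AS-Tspan8 line and was detected in neither, while all 6 EC arrays read 391 or more. By normalized group means Tagln was at least 26.0-fold higher in EC than in the tumour cells. The test set 6 EC arrays against the 2 lines (limma's adjusted p = 6.247e-05). Under the 13 alternatives the fitted log2 difference ran from 3.13 to 5.37, so the fold depends on the setting. Tnnt2 read 6152 in AS and 2587 in AS-Tspan8 cells, against 101 to 191 in EC. The log2 difference, EC minus tumour cells, was -4.42 ± 0.24 (0.047-fold, limma's adjusted p = 3.19e-05). Both calls stood beside a background in which 61.9% of 9972 features were called, 29.3% higher and 32.6% lower in EC, so a call as such does not set these genes apart. Myl9 read 916 in AS and 137 in AS-Tspan8 cells, on either side of the EC values of 145 to 427, and the difference of 0.77 ± 0.47 did not pass (limma's adjusted p = 0.202). Without replicate 2 of EC with AS-Tspan8 exosomes the Myl9 difference was 1.08. Under the 13 alternatives it ran from 0.007 to 1.08, and whether it passed depended on which EC array was left out. Each tumour line has 1 array, so the spread in these tests came from the EC arrays alone. The lines were assumed to vary like EC, and the p-values do not measure how far lines spread.

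**Figure D4:**
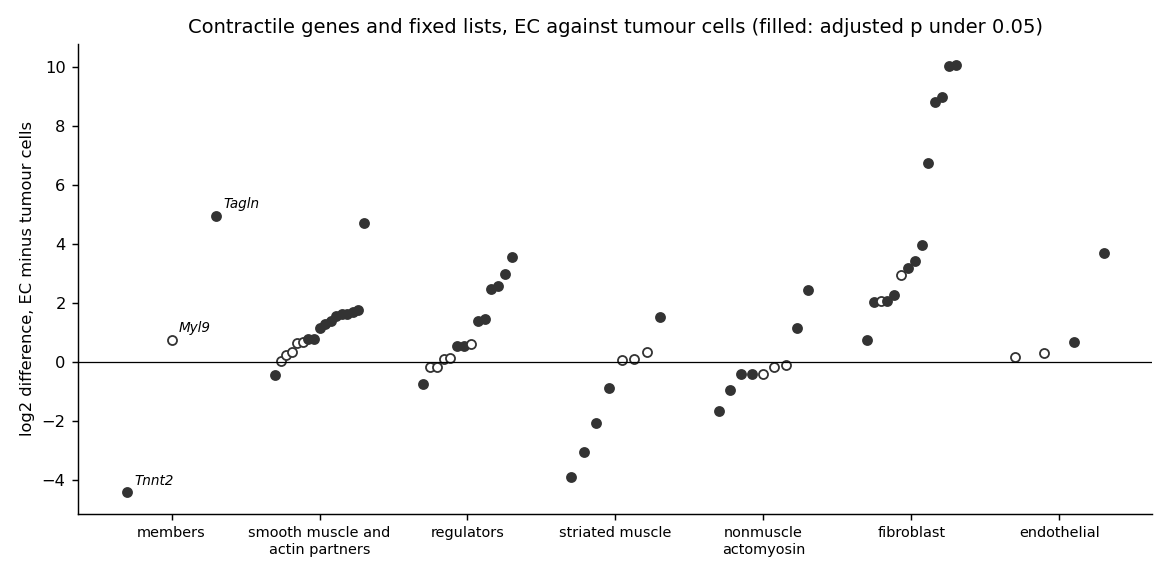
Difference in normalized log2 signal, EC minus tumour cells, for the members and 6 gene lists, with 1 point per tested gene, filled where adjusted p was under 0.05. Tagln is at 4.97 and Tnnt2 at -4.42, most smooth muscle partners lie above 0, and the 4 lowest striated muscle genes lie below it. Fitted values of genes undetected on 1 side depend on the offset and are not bounds.

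Most of the smooth muscle and actin partners were higher in EC, as Tagln was. Of 17 tested, 11 were higher in EC and 1, Pdlim7, was lower, beside the 29.3% and 32.6% of all features, with a median of 1.15 against -0.01 over all features. The 6 with the largest fitted differences were Ppp1r14a (4.73, with 1 of the 2 tumour lines not well above background at 105), Smtn (1.78), Synpo2 (at least 2.41-fold, as it was detected in neither tumour line), Fhl1 (1.64), Csrp1 (1.62) and Cald1 (1.55). Without scaling between arrays, where the median of all features moved to -0.83, 3 were called higher and 2 lower. In AS-Tspan8 cells the signals of Cald1 (4564) and Fhl1 (3646) lay within the EC range, and in AS cells they were 1244 and 926, below it. These signals are not normalized. The summed signal was 21955880 in AS-Tspan8 cells, 13714493 in AS cells and at most 12705558 in EC.

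Among 14 tested regulators 8 were higher in EC and 1, Klf5, lower, again beside 29.3% and 32.6% of all features, with a median of 0.59 against -0.01 over all features (6 higher and 4 lower without scaling). Klf4 differed by 3.56, the mesenchymal homeobox gene Prrx1 by 2.99, Gata6 by 2.59, Rock2, the kinase that acts on myosin phosphatase, by 2.47, and its activator Rhoa by 1.46. Jag1, a Notch ligand detected in neither tumour line, was at least 1.75-fold higher in EC. Srf differed by 0.54 and Mrtfa by 0.10, the latter not past the test. Of 8 tested striated muscle genes 4 were lower in EC and 1 higher, beside 32.6% and 29.3% of all features. With 75th percentile scaling 4 were called lower and 4 higher, and the median was 0.10 in place of -0.40. Embryonic myosin heavy chain (Myh3), at 377 in AS and 788 in AS-Tspan8 cells, was at least 7.46-fold lower in EC, and the cardiac transcription factor Gata4, at 242 and 477, at least 4.39-fold lower. Muscle creatine kinase (Ckm) was at least 2.31-fold and cardiac troponin I (Tnni3) at least 1.07-fold lower, and Tnnt3 was higher in EC by 1.54. Beside Tnnt2, the tumour cells thus had detectable signal for a few cardiac and embryonic muscle genes, while Actc1 and Des were not detected there. Of 9 tested nonmuscle genes 2 were higher in EC, Myh9 (2.45, with 1 of the 2 tumour lines not well above background) and Vim (1.17), and 4 lower, Myh10 (-1.66), Myl12b (-0.93), Tpm3 (-0.42) and Cfl1 (-0.42).

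The 2 tumour lines differed in both members they expressed, with 1 array each and therefore no test. The signal of Tnnt2 was 2.38 times higher in AS than in AS-Tspan8 cells (4.75 times after background correction and normalization), and that of Myl9 6.69 times (17.1 times). Of 8705 features detected in both lines, 235 (2.7%) were higher in AS cells by a normalized log2 difference of 1 or more. The Myl9 signal in AS-Tspan8 cells was near the limit of detection, with a detection p of 0.00364, so its normalized ratio leans on the background estimate. Of the 6 striated muscle genes detected in both lines, Ckm also read higher in AS cells (243 against 159). Myh3, Gata4, Tnni3, Tnnc1 and Tnnt3 read higher in AS-Tspan8 cells. So did Nppb of the same list, detected in AS-Tspan8 cells alone, at 606 against 86.2 in AS cells. These signals are not normalized, and the AS-Tspan8 array was brighter, with a median of 90.9 against 78.6. Tnnt3 (109 against 112), Tnnc1 (89.9 against 112) and Tnni3 (104 against 128) lay near background, so their order is not read as a difference.

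In exosomes the only member detected was Tnnt2, on both AS exosome arrays at 125 and 281, and on neither AS-Tspan8 exosome array, at 79.2 and 75.1. Tagln lay between 63.1 and 76.7 and Myl9 between 68.6 and 80.4 on the 4 exosome arrays, undetected on all. The exosome arrays were dim, with 2104 to 3604 probes detected against 9269 to 9389 in the tumour cells, and 6.36% of named genes were detected on all 4. The order of Tnnt2 in the exosomes, AS above AS-Tspan8, was that of the source cells.

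**Figure D5:**
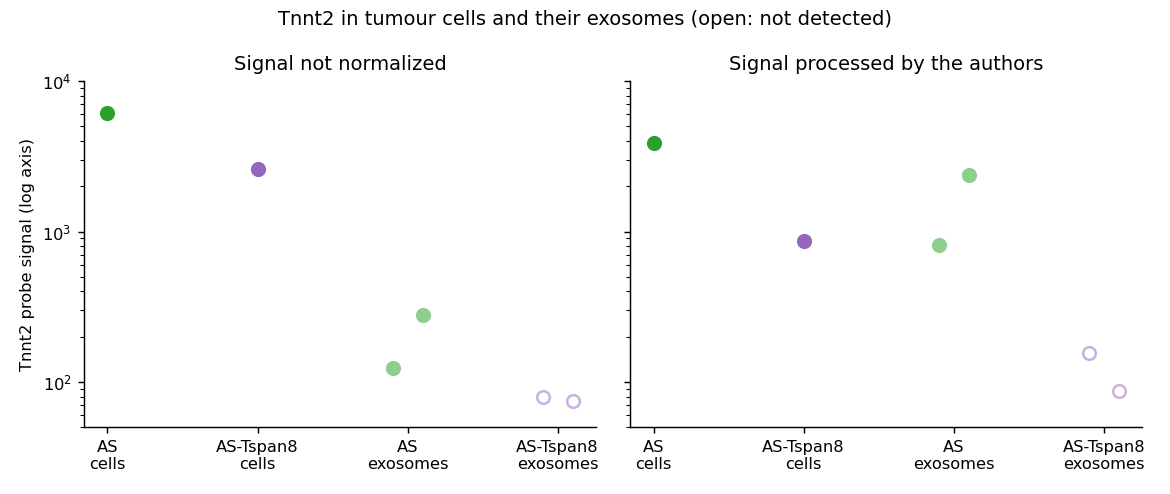
Tnnt2 signal on a log axis in the 2 tumour lines and their exosomes, not normalized on the left and as processed by the authors on the right, with 1 point per array, open where not detected. The AS exosome arrays read 125 and 281 on the left, and the processed value of the brighter one is 2377.

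By normalized group means Tnnt2 was at least 1.77-fold higher in AS than in AS-Tspan8 exosomes, but the difference did not pass the test. The fitted log2 difference, AS-Tspan8 minus AS exosomes, was -4.20 ± 0.86 with limma's adjusted p = 0.692 (n = 2 each), and this size depends on the normalization: the signal ratios were 0.64 between arrays numbered 1 and 0.27 between arrays numbered 2. No feature was called (0% of 9421), 618 had an unadjusted p under 0.05 (6.56%), and 24.7% had groups apart in the same direction. Relative to the source cells Tnnt2 was lower in exosomes by a log2 difference of -2.48 ± 0.81 (limma's adjusted p = 0.0568) where 56.9% of 9421 features were called, 40.9% lower, and the median of all features was -1.23. Myl9 was not well above background on any exosome array, and no size is given for it.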

How the data were processed

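RNA of the 12 samples was hybridised to 1-colour rat BeadChips. The authors deposited, per the file headers, a signal intensity and a detection p-value for each probe, not normalized. A further deposited table holds intensity values processed by the authors, with array medians between 78.1 and 78.6; the sources used here do not give the method. Summed signal was 10383650 to 12705558 on EC arrays, 13714493 to 21955880 on tumour cell arrays and 2390577 to 2924133 on exosome arrays; the number of arrays limits precision. GEO's platform annotation named 13793 probes with 1 symbol and 0 with several, and 8730 are unnamed here; 13752 matched RefSeq by gene ID.

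Signals were background-corrected by normexp from detection p-values (limma 3.58.1, R 4.3.3), given an offset of 16, quantile-normalized within 3 array sets (6 EC arrays, EC with tumour cells, tumour cells with exosomes) and put on the log2 scale. Probes with a detection p under 0.01 on at least 2 arrays were kept, with the brightest probe per gene. Groups came from the sample titles. Differences were tested with lmFit and eBayes, adjusted by Benjamini-Hochberg over all features, at 0.05. "At least" folds set the bright group's mean against, per dim array, the probe's own value or the lowest detected one, whichever is higher. They hold for normalized group means in the main setting, not for single arrays or other settings.

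The members and gene lists were chosen with earlier results of these data known. All members are named; from each of the 4 wider lists (partners, regulators, striated muscle, nonmuscle actomyosin) the features past the test (up to 6 of the largest size) or else the 2 of lowest p are, in each EC comparison; Srf, Mrtfa, the marker genes, those named by their detection and those named for single arrays were chosen after their values were seen. Same-numbered EC arrays deviated together from their group means (r = 0.495, 0.375 and 0.555 between pairs of groups); this comes from the data, not the labels. The exosome arrays did not (r = -0.334). The main fits of exosome treatments in EC had no term for the replicate number, so the shared deviation of same-numbered EC arrays counted in their SE. On simulated data the EC comparisons recovered 12 to 19 of 50 features changed by log2 1 and 37 to 45 of 50 changed by log2 2 (of 9025 features). EC against tumour cells recovered 28 and 34 of 50 (of 9972). Both exosome comparisons recovered 0 of 50 at either size and at log2 3 (of 9421). In the data 5361 features were called between exosomes and source cells, so the simulation does not describe that comparison. At log2 0.5 the EC comparisons recovered 0 of 50 features and EC against tumour cells 1 of 50. False calls numbered 1 to 8 in the EC comparisons and 7 in EC against tumour cells. Alternatives were another scaling, the processed table, offset 50, no filter, every probe, each array left out, and the replicate number as a block.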

Additional observations from a re-analysis of the deposited data

How the results depend on the processing

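Directions and calls of Tagln and Tnnt2 in EC against tumour cells held under all 13 alternatives (3.13 to 5.37 and -5.32 to -3.64 on the log2 scale), and the lower Tnnt2 with AS-Tspan8 exosomes kept its direction, never called, under all 13 (-1.27 to -0.51 against untreated EC, -1.19 to -0.57 against AS exosomes). The replicate block left 0 features called in the 3 EC comparisons and 0 between exosomes, and 6938 in EC against tumour cells, and it changed no call of a member. Over the arrays left out in turn, differences with AS exosomes against untreated EC ran from -0.088 to 0.232 for Tagln, -0.50 to 0.053 for Myl9 and -0.26 to 0.48 for Tnnt2, the sign turning without untreated replicate 2 for Tagln and Tnnt2, without untreated replicate 1 for Myl9 and without AS exosome replicate 2 for Myl9 and Tnnt2; with AS-Tspan8 exosomes against untreated EC from -1.143 to 0.072 for Tagln and -1.64 to 0.12 for Myl9; and against AS exosomes from -1.22 to 0.00 and -1.42 to 0.34, each upper end being that without AS-Tspan8 exosome replicate 2. The count between replicate numbers, 109 in the main setting, was 247 with 75th percentile scaling, 179 with offset 50, 265 without scaling, 0 without the detection filter (3032 at an unadjusted p under 0.05) and 0 to 193 with an array left out (0 without either array of EC with AS exosomes, 193 without EC with AS-Tspan8 exosomes replicate 2); the cause was not tested. Calls between exosomes and source cells numbered 5361, 8570 without scaling and 3616 to 6936 with an array left out. Their higher share was 28.1%, 40.2% with 75th percentile scaling, 38.3% without the filter and 5.05% without scaling, and that of EC against tumour cells 47.3% and, without scaling, 16.7%. Members called between exosomes and source cells were 0 in the main setting, 1 with 75th percentile scaling (Tnnt2 -3.11, limma's adjusted p = 0.00731), 1 with the processed values (Tnnt2 -2.18, 0.0425), 2 without scaling (Tnnt2 -6.15, 3.638e-06, and Myl9, undetected in exosomes) and 0 to 1 with an array left out (Tnnt2 -3.02, 0.0253, without AS exosomes replicate 2). Myl9 between exosomes, undetected on all 4 arrays, was 0.029 with 75th percentile scaling and -0.679 to 0.077 with an array left out, and Tnnt2 -5.10 to -1.74 over all 12 alternatives. The fit without scaling and the fit with crossed numbers were chosen after seeing the data; crossing the exosome numbers called 0 features, 1120 at an unadjusted p under 0.05. The 2 tumour cell arrays were never left out, as each line has 1. Signals near background limit Tnnt2 in EC and every member in exosomes.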

Other observations

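Tnnt2 stands in the RefSeq gene order of GRCr8 between genes that shared its pattern only in part. Among the 10 nearest genes with a named probe, 5 on each side, the slow skeletal troponin I gene Tnni1 and the ladinin gene Lad1 on one side and Mroh3 on the other were detected on no EC or tumour cell array, with Tnni1 at 69.1 in AS and 67.3 in AS-Tspan8 cells where Tnnt2 read 6152 and 2587. The other 7 were detected on all 6 EC arrays and both tumour cell arrays. Of these, Ipo9, Phlda3, Pkp1, Tmem9, Camsap2 and Ddx59 read higher in both tumour lines than on any EC array, as Tnnt2 did. Tmem9, for example, read 6114 and 10697 against 1321 to 2280 in EC. Csrp1 did not share this. The signals are not normalized, and the summed signal was larger on both tumour cell arrays than on any EC array. After normalization 35.4% of 9972 features were lower on all EC arrays than on both tumour cell arrays, so such an order is common. Pkp1, a desmosomal plakophilin next to Tnnt2, read 226 in AS and 1457 in AS-Tspan8 cells, the reverse of the order of Tnnt2. These are values of 1 array per line, with no test.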
